A study of Homo sapiens with 131 samples.

Results

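APOBEC1-DDX6 is a fusion of the cytidine deaminase APOBEC1 to DDX6, and it marks mRNAs near DDX6 by C-to-U changes. The comparison set 2 libraries of HCT116 cells that expressed this fusion together with LSM14A-ADAR2dd against 3 libraries of HCT116 cells that expressed APOBEC1-DDX6 alone, 5 of the 131 samples of the series. HCT116 is a human colorectal carcinoma line. The reference cells for each design were HCT116 cells with the unfused pair APOBEC1 and ADAR2dd (2 libraries) and with unfused APOBEC1 alone (3 libraries). All of these cells had been induced, by an agent and for a time not given in the sources used here, and all libraries were made from poly(A) RNA. The 2 gene tables were joined by gene name, which left 11511 genes, and 11379 of these had at least 20 reads in each of the 5 libraries. A test was run on the 8440 of them that also had at least 10 edited reads over the 5 libraries.

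Processing bodies (P-bodies) are cytoplasmic granules in which repressed mRNAs gather with proteins of translational repression, decapping and decay. DDX6 is an RNA helicase of the DEAD-box family that links the miRNA and deadenylation machinery to decapping and is needed for P-bodies to form. LSM14A is an RNA-binding protein that contacts DDX6 directly and helps to build the granule. ADAR2dd, the deaminase domain of ADAR2, converts adenosine to inosine, so that in the dual-editor cells C-to-U changes report the DDX6 fusion and A-to-I changes the LSM14A fusion on the same RNA population.

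Over the shared genes the dual-editor libraries held 11820667 and 12105307 reads and the APOBEC1-DDX6 libraries 9792960 to 12181732, of which 130579 to 158063 per library were C-to-U edited. The level of LSM14A, in RPM (reads scaled to a common library total), was 227 and 236 in dual-editor cells, against 146, 146 and 147 in APOBEC1-DDX6 cells, and DDX6 had 438 and 439 against 473, 466 and 465. Both genes can include reads of the transgenes. In the libraries with unfused editors, which carry no DDX6 or LSM14A fusion, LSM14A had 188.7 to 192.5 RPM and DDX6 337.7 to 371.8. LSM14A was thus higher in dual-editor cells and lower in APOBEC1-DDX6 cells than with the unfused editors. Of 21 HCT116 epithelial markers 12 were listed in both tables, among them EPCAM and KRT8, with a summed level of 3266 to 3313 RPM in dual-editor cells and 2594 to 2636 in APOBEC1-DDX6 cells, while CDH17, LGALS4 and TSPAN8 were not listed in both. The 10 of 22 HEK293T markers listed in both summed to 317 RPM in dual-editor cells and 273 to 293 in APOBEC1-DDX6 cells, and LIN28B, CRABP1 and NEFL were not among them. In a chi-square test of reads over genes, the 2 dual-editor libraries differed by no more than sampling noise (0.982 for each degree of freedom, p = 0.920), and so did APOBEC1-DDX6 replicates 2 and 3 (1.02, p = 0.0644). Their edited reads did differ beyond it (1.37 and 1.46), so the libraries were kept apart. Whether replicates are separate cultures is not stated, so every p-value below measures a spread that may be technical.

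The library-wide C-to-U share was lower in both libraries that also carried the LSM14A editor than in any of the 3 APOBEC1-DDX6 libraries without it. The share of reads edited was 1.10% and 1.10% in dual-editor replicates 1 and 2, against 1.30%, 1.36% and 1.40% in APOBEC1-DDX6 replicates 1, 2 and 3. The mean was 1.10% ± 0.00666 (SD, n = 2) with the LSM14A editor and 1.35% ± 0.0496 (SD, n = 3) without it, a ratio of 0.815 ± 0.0304. An exact two-sided permutation test gave p = 0.20, the smallest that 2 libraries against 3 can give with 10 splits. The Wilson 95% interval of each library was narrow (1.089 to 1.101% for dual-editor replicate 1) and covers counting error only. A separate set of libraries, labelled illumina, held dual-editor cells and cells with the unfused pair. Over 10666 genes its dual-editor libraries had 1.245% and 1.229% of reads edited. These shares lay between those of the 2 groups compared here, so the size of the drop differed between the sets of dual-editor libraries.

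The unfused editors differed in the same direction. Unfused APOBEC1 with ADAR2dd edited 0.254% and 0.228% of reads, against 0.320%, 0.316% and 0.322% for unfused APOBEC1 alone, a ratio of 0.756 ± 0.0579. The illumina libraries of the unfused pair had 0.269% and 0.275%, which also lay between these groups. Set against its own unfused partner, APOBEC1-DDX6 edited 4.56 ± 0.347 times as much in dual-editor cells and 4.23 ± 0.162 times as much without the LSM14A editor. The A-to-I share of the same dual-editor RNA was 4.52% in both replicates, against 0.260% and 0.246% with the unfused pair, and LSM14A-ADAR2dd expressed without APOBEC1-DDX6 gave 4.96% and 4.90%. The second editor, the cells made to carry it and the deposited table change together between the groups, so their parts cannot be told apart. Whether the groups share a batch is not given in the sources used here, so a batch cannot be told apart from them either. In bulk RNA, fewer cells with edited RNA and fewer edited molecules per cell cannot be told apart either.

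**Figure D1:**
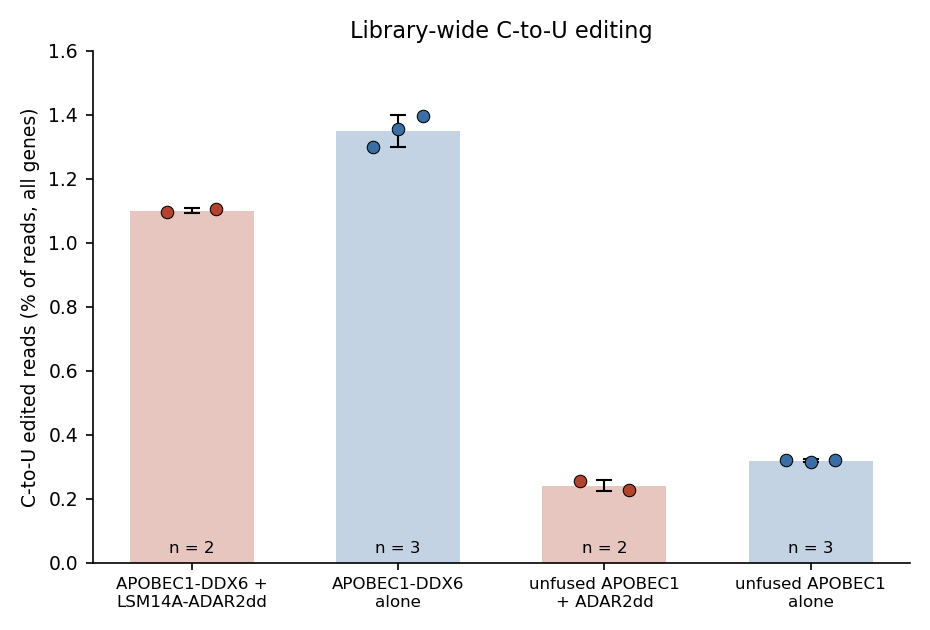
Percent of all reads with a C-to-U edit in each library (points), with the mean (bar) and SD (error bar) of each group. The 2 dual-editor libraries lie at 1.10%, below the 3 APOBEC1-DDX6 libraries, and the unfused pair likewise lies below unfused APOBEC1.

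Because of this offset, each gene's edited share was divided by the library-wide share, and a value of 1 then means editing at the library average. The order of genes was largely shared. Among 9996 genes covered by 100 or more reads in all 5 libraries, Spearman's rho of the edited share was 0.731 to 0.750 for the 6 pairs of a dual-editor and an APOBEC1-DDX6 library, against 0.780 between the 2 dual-editor libraries and 0.774 to 0.789 among the 3 APOBEC1-DDX6 libraries. Of the 500 genes with the highest share in a library, 277 to 294 were also in the top 500 across groups, 335 within dual-editor cells and 298 to 313 within APOBEC1-DDX6 cells. These are descriptions across genes, which are not independent replicates, and low counts lower every such rho.

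The genes with the highest edited share in dual-editor cells were TSPAN7, ARL6IP1, SPTSSA, B2M, SH3BGRL and NDUFB5. TSPAN7, a tetraspanin of the cell surface, was edited in 17.2% and 24.8% of reads in dual-editor cells, against 20.4%, 19.3% and 15.8% with APOBEC1-DDX6 alone. ARL6IP1, a protein that shapes ER membrane, had 14.8% and 14.5% in dual-editor cells and 16.1%, 17.2% and 15.5% with APOBEC1-DDX6 alone. B2M, the small invariant subunit of class I MHC molecules, had 12.4% and 12.6% against 12.3%, 12.2% and 12.4% with APOBEC1-DDX6 alone. TSPAN7 overlapped between the groups, ARL6IP1 was lower in both dual-editor libraries, and B2M kept nearly the same absolute share in all 5. SPTSSA, a small subunit of serine palmitoyltransferase, had 14.04% and 12.8% in dual-editor cells and 20.7%, 19.5% and 17.8% with APOBEC1-DDX6 alone. SH3BGRL had 10.9% and 13.3% against 15.3%, 16.0% and 13.98%, and NDUFB5, a subunit of respiratory complex I, 12.97% and 10.7% against 11.3%, 10.1% and 9.18%. Relative to library-wide editing none of the 6 passed the test (edgeR's quasi-likelihood test, adjusted p from 0.0839 for B2M to 0.968 for SH3BGRL), and DESeq2 called B2M alone (adjusted p = 0.0478).

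Few genes changed in relative editing. With edgeR's quasi-likelihood test, 26 genes rose in dual-editor cells (0.308% of the 8440 tested) and 18 fell (0.213%) at a Benjamini-Hochberg adjusted p of at most 0.05, while 961 had an unadjusted p under 0.05. The median log2 difference over all genes tested was 0.03, with quartiles of -0.40 and 0.45, and the relative values of the 2 groups did not overlap for 2457 genes (29.1%). DESeq2 called 12 higher and 5 lower. The split between rises and falls depended on the scaling, with 9 higher and 27 lower under TMM scaling of the edited reads, where the median of all genes lay at -0.15, 17 and 22 under median scaling, and 13 and 123 with no scaling to library-wide editing, where it lay at -0.26.

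The small number of libraries decided many calls. Without dual-editor replicate 1 there were 2 higher and 0 lower, without dual-editor replicate 2 there were 4 and 2, and without APOBEC1-DDX6 replicate 1, 2 or 3 there were 15 and 9, 3 and 1, and 3 and 3. MSX1 and EXOC7 passed in all 5 of these fits, and the other 24 rises and all 18 falls lost the call in at least 1. With APOBEC1-DDX6 replicates 2 and 3 added together as 1 sample, 14 genes were higher and 8 lower.

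**Figure D2:**
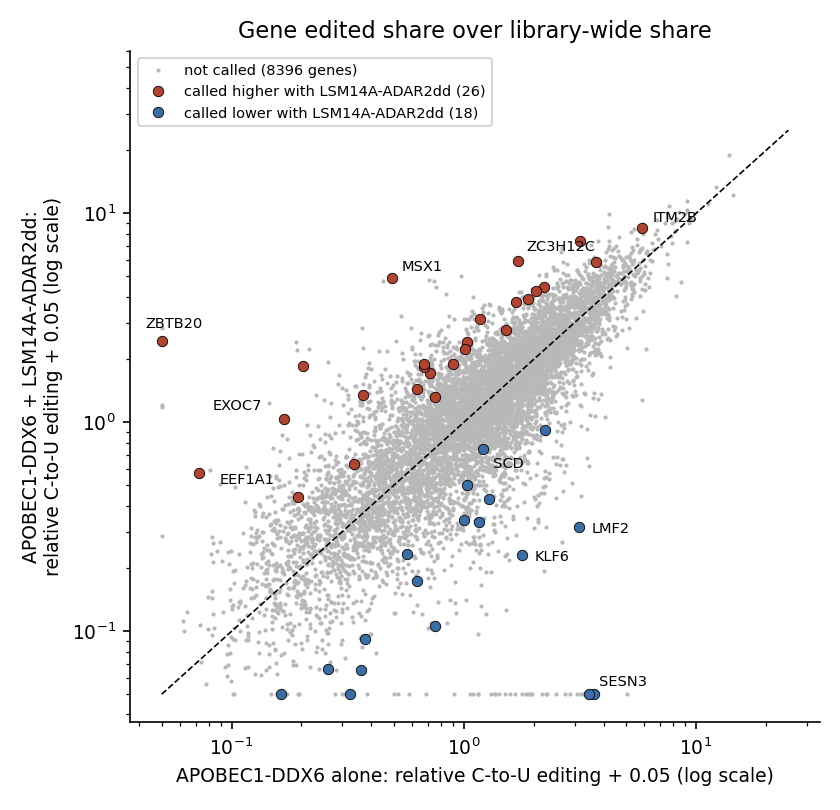
Relative C-to-U editing (edited share of the gene over the library-wide share, plus 0.05, log scales) of the 8440 tested genes, as means over the 2 dual-editor libraries (vertical) and the 3 APOBEC1-DDX6 libraries (horizontal). Most genes lie around the dashed line of equality, with 26 called higher above it and 18 called lower below it.

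MSX1 and EXOC7 rose in every fit that left out a library. MSX1, a homeobox transcription factor gene on chromosome 4 (GRCh38, chr4:4859665-4863936), had 4.76% and 5.97% of reads edited in dual-editor cells, against 0.420%, 0.848% and 0.513% with APOBEC1-DDX6 alone. Its relative editing averaged 4.88 times the library level in dual-editor cells and 0.439 times with APOBEC1-DDX6 alone, a log2 difference of 3.43 ± 0.32 (SE, adjusted p = 2.64e-07, edgeR). EXOC7, which encodes a subunit of the exocyst tether of secretory vesicles (chr17:76081016-76103787), had 0.983% and 1.20% in dual-editor cells and 0.0945%, 0.289% and 0.0928% with APOBEC1-DDX6 alone (log2 3.07 ± 0.34, adjusted p = 4.69e-06, edgeR). In both genes every dual-editor library lay above every APOBEC1-DDX6 library, and the adjusted p over the fits that left out 1 library stayed at or below 0.000834 for MSX1 and 0.00722 for EXOC7. The illumina dual-editor libraries, set against the same APOBEC1-DDX6 libraries, gave 121 genes higher (1.46% of 8275) and 76 lower (0.918%). EXOC7 was edited in 0.116% and 0.189% of reads there, within its range with APOBEC1-DDX6 alone, and MSX1 had no value there. MSX1 was nearly unedited by the unfused editors, with 0 edited reads in both libraries of the unfused pair and 0, 4 and 0 with unfused APOBEC1.

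The other large rises, ranked by size among called genes that met the rule for named genes, belonged to genes of varied function. ZC3H12C, a zinc finger endoribonuclease of the Regnase family, had 6.38% and 6.51% in dual-editor cells against 2.17%, 2.72% and 1.83% with APOBEC1-DDX6 alone (log2 1.80 ± 0.35, adjusted p = 0.0106). PRKCA, protein kinase C alpha, had 3.27% and 3.47% against 1.39%, 1.32% and 1.85% (log2 1.45 ± 0.25, adjusted p = 0.00386), and PURB, a single-stranded nucleic acid binding protein, had 2.74% and 2.46% against 0.936%, 1.83% and 1.21% (log2 1.28 ± 0.30, adjusted p = 0.0477). None of these groups overlapped, nor did those of MSX1 and EXOC7, which the rule for named genes required. Groups were separate in 29.1% of all genes tested. ZBTB20, a zinc finger repressor, had 22 edited reads of 820 in dual-editor cells and 0 of 776 with APOBEC1-DDX6 alone, a share there of up to 0.387%, and its relative editing was at least 8.50-fold higher in dual-editor cells, with the floor of 3 counts set over the group. XPNPEP1, a cytosolic aminopeptidase, had 2.15% and 1.90% against 1.12%, 0.764% and 0.614%, and IGFBP2, a secreted carrier of insulin-like growth factors, 2.22% and 1.44% against 1.08%, 0.834% and 0.758%. TMEM151A, a membrane protein, had 1.76% and 2.23% against 0.435%, 0% and 0.176% with APOBEC1-DDX6 alone, which rest on 4 edited reads. The unfused editors edited TMEM151A more than APOBEC1-DDX6 alone did, at 0.714% and 1.81% with the pair and 1.09%, 1.42% and 1.04% with unfused APOBEC1. XPNPEP1 had 0.824% and 0.659% in the illumina libraries and IGFBP2 0.984% and 0.917%, both within their range with APOBEC1-DDX6 alone. ZC3H12C had 3.69% and 2.23% there, the second within its range. PRKCA had 3.07% and 2.35%, PURB 2.79% and 2.46%, ZBTB20 1.14% and 0.658%, and TMEM151A 1.86% and 1.08%, all above theirs. ZC3H12C kept the call without APOBEC1-DDX6 replicate 1 only (adjusted p 0.0470 to 0.189 over the 5 fits that left out a library), PRKCA without APOBEC1-DDX6 replicate 1 or 3 (0.0182 to 0.189), and PURB in none (0.0593 to 0.461). XPNPEP1 and TMEM151A passed without APOBEC1-DDX6 replicate 1 only (adjusted p up to 0.275 and 0.329 in the other fits), and ZBTB20 and IGFBP2 in none of the fits in which they were tested (up to 0.124 and 0.504).

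The lists of translation factors and cytosolic ribosomal proteins held 5 of the rises and 1 of the falls. EEF1A1, the elongation factor that carries aminoacyl-tRNA to the ribosome, had 0.417% and 0.439% of its reads edited in dual-editor cells, against 0.297%, 0.1248% and 0.156% with APOBEC1-DDX6 alone (log2 1.42 ± 0.22, adjusted p = 0.00134, edgeR). RPLP1, an acidic protein of the ribosomal stalk, had 1.63% and 1.44% against 0.755%, 0.766% and 0.825% (log2 1.26 ± 0.22, adjusted p = 0.00386), and TPT1, the translationally controlled tumour protein, had 1.56% and 1.23% against 0.946%, 0.868% and 1.02% (log2 0.85 ± 0.15, adjusted p = 0.00386). The large-subunit proteins RPL37A (0.959% and 1.92% in dual-editor cells, 0.0612%, 0.893% and 0.343% with APOBEC1-DDX6 alone) and RPL37 (2.10% and 1.82%, against 0.773%, 0.388% and 1.37%) rose by log2 2.05 ± 0.47 and 1.53 ± 0.34. The groups of all 5 genes were separate, though RPL37A only narrowly, beside 29.1% of all genes tested. RPS6, the small-subunit protein phosphorylated by S6 kinase, went the other way, with 0.0735% and 0.0186% in dual-editor cells against 0.240%, 0.657% and 0.428% with APOBEC1-DDX6 alone (log2 -2.89 ± 0.60, adjusted p = 0.0196). DESeq2 called RPLP1 (adjusted p = 0.00290) and TPT1 (0.000625) and not EEF1A1 (0.145), and it gave no adjusted p for RPL37, RPL37A and RPS6. These genes have near-identical processed pseudogenes, so that their counts are uncertain where reads could be shared.

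Across the whole list, 3 of 58 tested cytosolic ribosomal protein genes rose and 1 fell, beside 0.308% and 0.213% of all genes tested, and their median log2 difference was 0.30 beside 0.03 for all genes. Under TMM scaling that median was 0.13 beside -0.15 for all genes, and with the illumina dual-editor libraries it was -0.74 beside 0.00. The direction of the list as a whole therefore differed between the 2 sets of dual-editor libraries. EEF1A1 was edited in 0.314% and 0.432% of reads in the illumina libraries and RPL37 in 1.89% and 1.25%, while RPLP1 had 0% and 0.729%, TPT1 0.483% and 1.17%, and RPS6 0.815% and 0.372%. RPL37A had 0.817% and 0.391% there, within its range with APOBEC1-DDX6 alone. Of 33 translation factors 2 rose, EEF1A1 and TPT1, beside 0.308% of all genes tested, and none fell, with a median log2 difference of 0.05. EEF1A1 kept its call without APOBEC1-DDX6 replicate 1 (adjusted p = 3.57e-06) and in no other fit that left out a library (up to 0.189), and RPL37 and RPL37A kept theirs in none (up to 0.414 and 0.489). RPLP1 and RPS6 kept theirs without APOBEC1-DDX6 replicate 1 only (otherwise up to 0.189 and 0.312), and TPT1 without APOBEC1-DDX6 replicate 1 or dual-editor replicate 2 (otherwise up to 0.300).

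**Figure D3:**
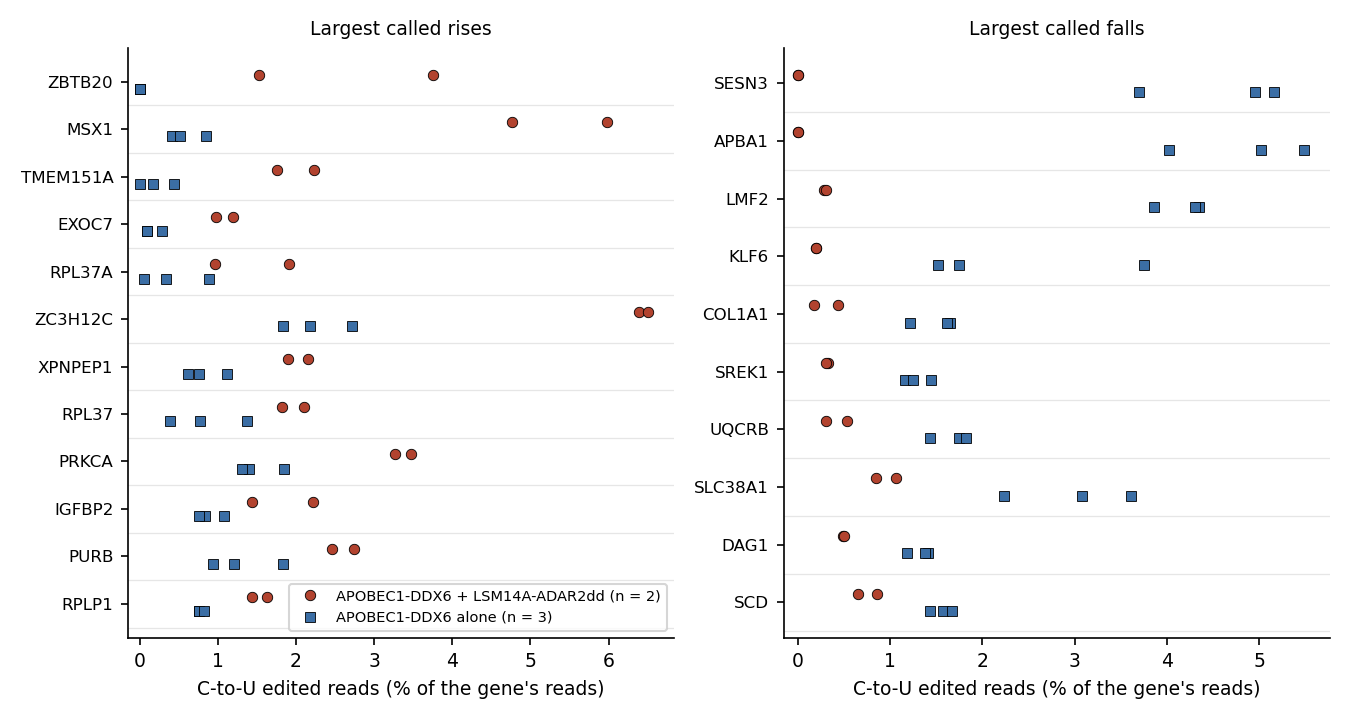
Percent of each gene's reads with a C-to-U edit in each library, for the 12 largest rises (left panel) and the 10 largest falls (right panel) that met the rule for named genes. Circles are the 2 dual-editor libraries and squares the 3 APOBEC1-DDX6 libraries, and genes were shown only where the groups did not overlap, as in 29.1% of all genes tested.

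SCD and ACLY of the lipid synthesis list fell. SCD, the stearoyl-CoA desaturase that makes monounsaturated fatty acids (chr10:100347233-100364826), had 0.659% and 0.863% in dual-editor cells against 1.57%, 1.67% and 1.44% with APOBEC1-DDX6 alone (log2 -0.75 ± 0.15, adjusted p = 0.0130, edgeR). ACLY, which makes cytosolic acetyl-CoA from citrate, had 0.160% and 0.249% against 0.550%, 0.793% and 0.767% (log2 -1.47 ± 0.33, adjusted p = 0.0370). Both genes were lower in each dual-editor library than in any APOBEC1-DDX6 library. Relative values were separate between the groups in 29.1% of all genes tested. They were the 2 of 25 tested cholesterol and fatty acid synthesis genes that fell, beside 0.213% of all genes tested, none rose, and the list's median log2 difference was -0.09. SCD was also low in the illumina dual-editor libraries, at 0.571% and 0.791%. DESeq2 called SCD (adjusted p = 0.00292) and not ACLY (0.0612). Neither gene kept its call in every fit that left out a library. SCD passed in none of them (adjusted p 0.0532 to 0.414) and ACLY without APOBEC1-DDX6 replicate 1 only (0.0404 to 0.461).

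SLC38A1, a transporter of glutamine and other neutral amino acids, had 0.848% and 1.07% in dual-editor cells against 2.23%, 3.62% and 3.08% with APOBEC1-DDX6 alone (log2 -1.32 ± 0.27, adjusted p = 0.0179). DAG1, the laminin receptor dystroglycan, had 0.492% and 0.504% against 1.41%, 1.38% and 1.182%, and COL1A1, a chain of type I collagen, 0.442% and 0.178% against 1.65%, 1.62% and 1.22%. These groups did not overlap, which the rule for named genes required. DAG1 was edited in 2.57% and 2.27% of reads in the illumina dual-editor libraries, above its level with APOBEC1-DDX6 alone. UQCRB, a subunit of respiratory complex III, had 0.306% and 0.533% against 1.43%, 1.75% and 1.83%, and it was the 1 fall among 36 tested oxidative phosphorylation genes, with 0 rises and a median of -0.07. SREK1, a splicing regulator, had 0.330% and 0.311% against 1.16%, 1.25% and 1.44%. Unlike DAG1, these other falls stayed below their levels with APOBEC1-DDX6 alone in the illumina dual-editor libraries. There SLC38A1 had 1.09% and 1.76%, COL1A1 0.615% and 0.785%, UQCRB 0.386% and 0.401%, and SREK1 0.315% and 0.709%. SLC38A1 and SREK1 kept the call without APOBEC1-DDX6 replicate 1 only, with adjusted p up to 0.364 and 0.240 in the other fits, and DAG1, COL1A1 and UQCRB in none (up to 0.323, 0.387 and 0.461).

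Some falls ended at or near 0 edited reads. Whether sites were filtered alike in both deposited tables is not given in the sources used here, and for genes at or near 0 in 1 group, such as SESN3, APBA1, ZBTB20 and MSX1, its part in the value was not tested. SESN3, a stress-induced sestrin, had 0 edited reads of 377 in dual-editor cells, which allows a share of up to 0.796%, against 4.96%, 3.70% and 5.16% with APOBEC1-DDX6 alone. APBA1, a neuronal adaptor protein, had 0 of 341, a share of up to 0.880%, against 5.49%, 4.03% and 5.02%. SESN3 was also listed at 0% A-to-I editing in dual-editor cells, against 7.73% and 9.67% with LSM14A-ADAR2dd alone. Relative editing in dual-editor cells was at least 4.72-fold lower for SESN3 and at least 4.58-fold lower for APBA1. KLF6, an immediate early zinc finger transcription factor, had 0.197% and 0.205% against 1.75%, 3.75% and 1.52%, on 4 edited reads in dual-editor cells and 29 with APOBEC1-DDX6 alone. It was the 1 fall among 30 tested immediate early and AU-rich mRNAs, with 0 rises and a median of -0.38. The illumina libraries gave KLF6 1.40% and 1.33%. Without a library SESN3 passed only when APOBEC1-DDX6 replicate 1 was left out (adjusted p = 0.0470, otherwise up to 0.280), and APBA1 and KLF6 in no fit (up to 0.305 and 0.329).

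LMF2, a lipase maturation factor of the ER (chr22:50502949-50507702), also differed between the unfused editors. It had 0.284% and 0.303% in dual-editor cells against 4.34%, 3.86% and 4.31% with APOBEC1-DDX6 alone (log2 -3.47 ± 0.51, adjusted p = 0.000592, edgeR). With the unfused pair it had 0.517% and 0.119%, against 4.61%, 4.25% and 2.66% with unfused APOBEC1 (log2 -3.15 ± 0.54, adjusted p = 0.00152). The difference between these 2 differences was -0.23 ± 0.79 on the log2 scale (adjusted p = 0.966, interaction term). LMF2 lost its call with the DDX6 fusion only without dual-editor replicate 1 (adjusted p = 0.117), and its call between the unfused editors without unfused APOBEC1 replicate 1 (0.101) or either library of the unfused pair (0.0515 and 0.111).

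IFITM3, a restriction factor against virus entry, was the 1 rise among 17 tested interferon-stimulated genes, with 0 falls and a median of 0.05. It had 0.644% and 0.504% in dual-editor cells against 0%, 0.0902% and 0% with APOBEC1-DDX6 alone. With 37 edited reads in dual-editor cells and 3 with APOBEC1-DDX6 alone, its relative editing was 23.7-fold higher (95% counting interval 7.495 to 120). Its near-identical family members make the counts uncertain. Unfused APOBEC1 edited IFITM3 in 0.492%, 0.680% and 0.578% of reads, above its level with APOBEC1-DDX6 alone, and the unfused pair in 0.378% and 0%. The illumina dual-editor libraries gave 0.538% and 0%. IFITM3 lost its call without dual-editor replicate 1 or APOBEC1-DDX6 replicate 3 (adjusted p = 0.189 and 0.0567).

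The other called genes named here lie outside the rule for named genes and were chosen after their values were seen. GPRC5A, an orphan receptor induced by retinoic acid, had 5 edited reads of its 8162 in dual-editor cells and 37 of 3937 with APOBEC1-DDX6 alone. ITM2B, an integral membrane protein processed by furin, had the highest share of the genes that rose, at 8.91% and 9.62% against 7.84%, 7.90% and 7.83% (log2 0.53 ± 0.11, adjusted p = 0.0196). Both had separate groups, beside 29.1% of all genes tested, and GPRC5A stayed low in the illumina libraries, at 0.0323% and 0.0336%. THAP5, a zinc finger protein, had 7.21% and 8.92% against 4.07%, 3.99% and 4.54%, and TMEM30A, a subunit of lipid flippases, had 6.25% and 6.57% against 4.75%, 5.72% and 4.35%. Both were higher in both dual-editor libraries. AKAP8L and PLOD1, a lysyl hydroxylase of collagen, had 0 edited reads of 7280 and 13243 in dual-editor cells, at least 7.37-fold and 5.46-fold lower relative editing than with APOBEC1-DDX6 alone, where at most 0.423% and 0.189% of reads were edited. Further rises, SYNJ2BP, SLC25A36, PTAR1, C5orf24, ETNK1 and FTH1, ranged from log2 1.01 for FTH1 to 1.20 for SYNJ2BP. SYNJ2BP, PTAR1, C5orf24 and FTH1 lost the call in every fit that left out an APOBEC1-DDX6 library. SLC25A36 and ETNK1 kept it there only without replicate 1. In the illumina dual-editor libraries FTH1 had 0.104% and 0.0400%, below its level with APOBEC1-DDX6 alone. ETNK1 had 2.23% and 3.59% there, on either side of its range. SYNJ2BP, SLC25A36 and C5orf24 lay above theirs in both libraries, and PTAR1 in replicate 1 only. DOCK5, an activator of the GTPase Rac, stood at log2 -2.19, and CHCHD2 had 1 edited read of 5950 in dual-editor cells against 33 of 8053 with APOBEC1-DDX6 alone. Of the fits that left out an APOBEC1-DDX6 library, DOCK5 kept its call only in that without replicate 1, and CHCHD2 in none. GPRC5A lost its call without either dual-editor library or APOBEC1-DDX6 replicate 2, and ITM2B in all but the fit without APOBEC1-DDX6 replicate 1 (adjusted p up to 0.189 and 0.299). THAP5, TMEM30A and PLOD1 passed in no fit that left out a library, and AKAP8L without APOBEC1-DDX6 replicate 1 only (0.0404).

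The mRNAs of P-body proteins themselves did not pass. Of 26 P-body and decapping factors 21 were tested, and edgeR's quasi-likelihood test and DESeq2 each called 0, with 4 at an unadjusted p under 0.05 and a median log2 difference of 0.06. DDX6 had 1.28% and 1.00% of its reads edited in dual-editor cells, against 1.62%, 1.23% and 1.22% with APOBEC1-DDX6 alone, and LSM14A had 1.599% and 1.82% against 1.04%, 1.84% and 1.96%. In absolute terms the groups overlapped in both genes, and both counts can include transgene reads. DCP2, the decapping enzyme, had 4.78% and 3.51% in dual-editor cells against 3.44%, 2.31% and 2.56%, EDC3, an enhancer of decapping, had 1.06% and 1.17% against 0.553%, 0.437% and 0.477%, and PNRC2, an adaptor between decapping and nonsense-mediated decay, had 0.762% and 1.07% against 2.18%, 2.81% and 2.08%. These 3 had adjusted p of 0.201, 0.244 and 0.150. In relative editing the groups did not overlap in 8 of the 21 factors, beside 29.1% of all genes tested. XRN1, the 5′-to-3′ exonuclease, had 2.92% and 1.79% against 3.08%, 2.56% and 3.19%, and PATL1, a decapping scaffold, had 2.21% and 2.14% against 2.05%, 2.46% and 2.29%. The other factors ran from log2 -1.10 for DCPS, the scavenger decapping enzyme, to 2.09 for LSM5, on 25 and 10 edited reads in all 5 libraries.

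**Figure D4:**
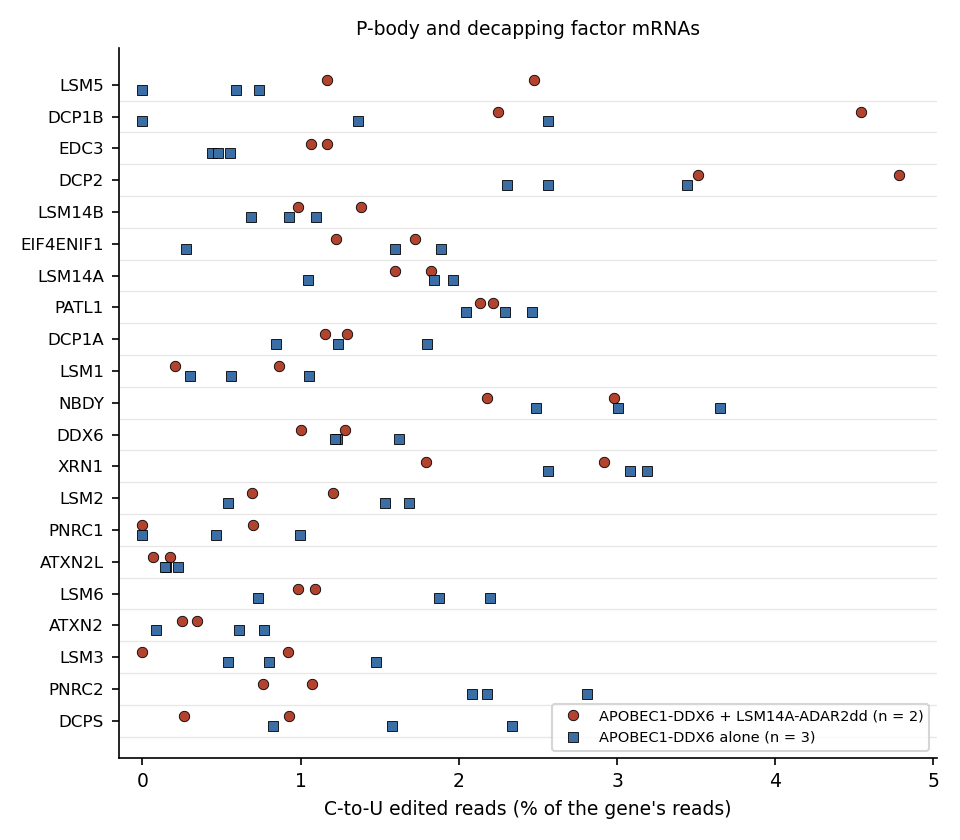
Percent of reads with a C-to-U edit for the 21 tested P-body and decapping factor mRNAs, ordered by their log2 difference, in the 2 dual-editor libraries (circles) and the 3 APOBEC1-DDX6 libraries (squares). LSM5 at the top and DCPS at the bottom mark the extremes, and no gene passed the test.

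Other gene groups likewise held few or 0 calls. The CCR4-NOT and miRNA silencing factors had 0 of 33 called, with a median log2 difference of -0.10 and 3 genes at an unadjusted p under 0.05. The let-7 and miR-17 target list had 0 of 22 (median 0.00, with 3), genes of ER translocation and the early secretory pathway 0 of 46 (0.14, with 6), chromatin factors 0 of 74 (-0.08, with 9) and ZNF genes 0 of 192 (-0.05, with 15). Glycolysis genes had the lowest list median, -0.49, with 0 of 17 called and 6 at an unadjusted p under 0.05, and proteasome genes -0.28 with 0 of 18 and 2. MHC class I and peptide loading genes had 0 of 11 called by edgeR, with a median of -0.09 and 1 at an unadjusted p under 0.05, and DESeq2 called 1, B2M. DESeq2 called 0 in each other list of this paragraph. The tubulin and actin list (0 of 31, median -0.24), p53 targets (0 of 22, 0.09), genes of the unfolded protein response (0 of 25, -0.08), mitochondrial ribosomal proteins (0 of 29, -0.15), mitotic factors (0 of 18, 0.05) and selenoproteins (0 of 10, -0.02) had 4, 7, 2, 2, 1 and 0 genes at an unadjusted p under 0.05. HCT116 markers (0 of 7, -0.11), HEK293T markers (0 of 7, -0.23) and histones (0 of 5, 0.19) had 2, 0 and 1.

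The paired unfused editors were compared with unfused APOBEC1 alone to show which genes differed without DDX6 or LSM14A. Relative editing was higher with the pair in 19 of 5600 genes (0.339%) and lower in 54 (0.964%). These counts were 10 and 28 with DESeq2, 16 and 174 under TMM scaling, 16 and 203 with no scaling, and 6 to 7 and 12 to 25 when any of the 5 libraries was left out. SLC25A3, the mitochondrial phosphate carrier, was 0.787% and 0.748% edited with the unfused pair against 0.0325%, 0.0166% and 0.0662% with unfused APOBEC1 (log2 4.65 ± 0.37, adjusted p = 1.90e-08, edgeR). The illumina libraries of the unfused pair had 0.0183% and 0.0574% for SLC25A3, within its range with unfused APOBEC1, so this rise was absent there. The same gene had 2 edited reads of 11324 in dual-editor cells and 48 of 16906 with APOBEC1-DDX6 alone, a ratio of relative editing of 0.0761 (95% counting interval 0.00896 to 0.290). B2M was edited in 0.454% and 0.853% of reads with the unfused pair and in 3.38%, 3.80% and 3.37% with unfused APOBEC1 (log2 -1.99, adjusted p = 9.84e-07), although its share was alike in the 2 groups with the DDX6 fusion. With the DDX6 fusion SLC25A3 lost its call in every fit that left out a library (adjusted p up to 0.461), and between the unfused editors it and B2M kept theirs in all 5.

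A fit over all 10 libraries tested the difference between the DDX6-fused groups beyond that between the unfused ones. It called 62 genes higher (0.652% of 9503) and 19 lower (0.2%), from the same libraries as the comparisons above. Under TMM scaling there were 115 and 14, with DESeq2 104 and 26. Without replicate 1 or 2 of the unfused pair there were 31 and 5, and 21 and 7, without dual-editor replicate 1 there were 36 and 10, and without unfused APOBEC1 replicate 1 or 3 the lower genes numbered 11 and 9. MSX1, IFITM3, PRKCA, ITM2B, UBXN7, B2M and SH3BGRL were higher in this test and SLC25A3 was lower. For PRKCA the difference was 1.91 ± 0.48 (adjusted p = 0.0193), for ITM2B 1.86 ± 0.36 (adjusted p = 0.000805), where the unfused editors differed by log2 -1.32 (0.642% and 0.940% with the pair against 2.53%, 2.75% and 2.72% with unfused APOBEC1), and for IFITM3 5.56 ± 0.90 (adjusted p = 1.02e-05, edgeR). B2M, IFITM3, ITM2B and SLC25A3 kept this call in all 10 fits that left out 1 library. UBXN7, a ubiquitin-binding adaptor of the VCP segregase that was 2.88% and 1.94% edited in dual-editor cells against 0.872%, 1.28% and 1.77% with APOBEC1-DDX6 alone, lost it without dual-editor replicate 1 (0.0614) or unfused pair replicate 2 (0.139). SH3BGRL lost it without dual-editor replicate 2 or either library of the unfused pair (adjusted p 0.0951 to 0.1098), and PRKCA without either dual-editor library, unfused pair replicate 2 or unfused APOBEC1 replicate 2 or 3 (0.0590 to 0.227). MSX1 kept it only without APOBEC1-DDX6 replicate 2 or unfused APOBEC1 replicate 1 or 3, and stood at log2 3.42 without unfused APOBEC1 replicate 2 (adjusted p = 1.00). EXOC7 gave 3.10 (adjusted p = 0.213), with 0% and 0.0900% edited by the unfused pair and 0%, 0% and 0.199% by unfused APOBEC1.

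The called genes are described here by other readouts, as medians with no test. Median A-to-I editing in dual-editor cells was 5.09% for the 26 rises, 2.96% for the 18 falls and 3.99% for all genes tested. With LSM14A-ADAR2dd alone, in other libraries, the medians were 6.02%, 3.89% and 3.87%, and with LSM14A-APOBEC1, a C-to-U editor on LSM14A, they were 1.00%, 0.385% and 0.832%. The ranges overlapped widely, from 0.574% for IFITM3 to 15.5% for RPL37 among the rises and from 0% for SESN3 to 12.1% for RPS6 among the falls. The median number of reads per library was 2154 for the rises and 2831 for the falls, against 727 for all genes tested, and reads enter the test as its offset and set how small a difference it can call. Their log2 translation efficiency in wild-type HCT116 cells, from the authors' deposited table, had medians of -0.59 and -0.56 beside -0.22 for all genes with a value, and in DDX6-knockout cells -0.10 and -0.12 beside 0.23.

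Over all tested genes such medians differed little in the main comparison. The tested genes were split into 5 groups of equal size. From the lowest to the highest group by A-to-I editing in dual-editor cells, the median log2 difference in relative C-to-U editing was -0.04, 0.00, 0.02, 0.05 and 0.09. By C-to-U editing with LSM14A-APOBEC1 it was -0.12, -0.01, 0.01, 0.03 and 0.14, and by C-to-U editing with unfused APOBEC1, which carries no LSM14A, -0.14, 0.00, 0.05, 0.10 and 0.13. With the illumina dual-editor libraries the medians over the groups by A-to-I editing were -0.06, 0.00, 0.01, -0.04 and -0.03, without that order. Over those by LSM14A-APOBEC1 editing they were 0.00, 0.06, -0.01, -0.09 and -0.03, again without it. Over the groups by unfused APOBEC1 the illumina medians did rise, from -0.26, -0.08 and 0.01 to 0.08 and 0.07. By A-to-I editing with LSM14A-ADAR2dd alone they were -0.33, -0.04, -0.01, 0.04 and 0.08, beside -0.04, 0.03, 0.03, 0.03 and 0.09 in the main comparison. In the main comparison the quartiles of each group lay on both sides of 0, and all of these are medians across genes with no test.

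**Figure D5:**
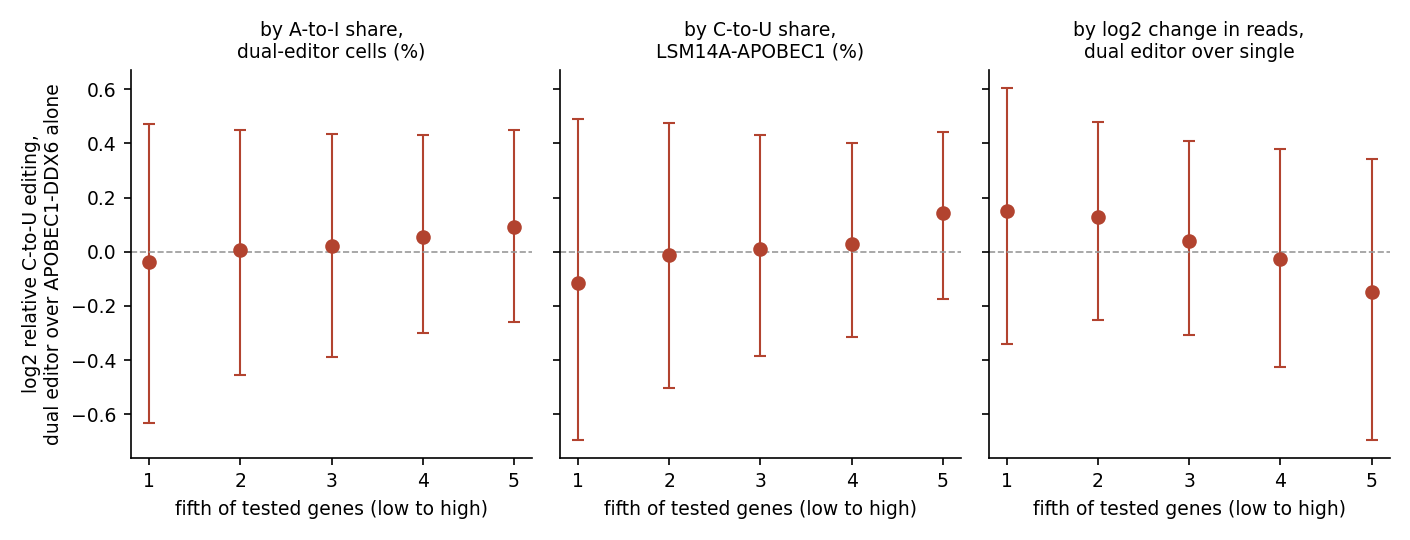
Median (point) and quartiles (bars) of the log2 difference in relative C-to-U editing, dual editor over APOBEC1-DDX6 alone, in 5 groups of equal size of the tested genes by A-to-I share in dual-editor cells, by C-to-U share with LSM14A-APOBEC1 and by log2 change in reads. Medians move between -0.04 and 0.09 in the first panel, -0.12 and 0.14 in the middle panel, and 0.15 and -0.15 in the last.

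Read levels changed in far more genes than relative editing did. Reads per gene were higher in dual-editor cells for 4177 of 11379 genes (36.7%) and lower for 4136 (36.3%), with TMM scaling and replicates that hardly varied beyond counting noise. KLF6 had 1015 and 976 reads in dual-editor cells against 458, 400 and 394 with APOBEC1-DDX6 alone (log2 1.08 ± 0.050, adjusted p = 6.05e-41, edgeR), and GPRC5A had 4180 and 3982 against 1501, 1275 and 1161 (log2 1.47 ± 0.029). Both genes with these separate read levels were edited less in relative terms, but read levels of the falls went both ways. Of the 18 falls 12 had a changed read level, 4 higher and 8 lower in dual-editor cells. Of the 26 rises 25 did, 7 higher and 18 lower. SESN3, whose reads and relative editing were both lower, had 186 and 191 reads against 565, 514 and 485. ZC3H12C, with both higher, had 705 and 676 against 322, 294 and 273. In 5 groups by the log2 change in reads, from the largest decrease to the largest increase, the median log2 difference in relative editing was 0.15, 0.13, 0.04, -0.03 and -0.15, and reads are also the denominator of the edited share. Of 75 cytosolic ribosomal protein genes 60 had more reads in dual-editor cells and 8 fewer, with RPL37 at log2 0.61 and RPL37A at 0.66.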

How the data were processed

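Libraries of HCT116 poly(A) RNA were placed in groups by their titles. The authors deposited, per gene and library, the count of reads, the count of edited reads and their ratio as an edited fraction. Uninduced TPM and log2 translation efficiency, 1 value per genotype, are also as the authors deposited them. The submitters' processing notes name STAR 2.7.9a, featureCounts 2.0.1, cutadapt 1.18 and FastQC 0.11.9, and the build hg38. How edited sites were called and filtered is not given in the sources used here. A table's 2 TPM columns that match no sample label were not used.

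Edited reads were tested in R 4.3.3 with edgeR 4.0.16 (quasi-likelihood, two-sided), with log(reads of the gene × library-wide edited share) as offset, and Benjamini-Hochberg adjustment over all genes tested. Standard errors are the log2 difference over the root of the F statistic. The tests were checked on simulated data. DESeq2 1.42.0 and limma 3.58.1 were alternatives. Positions are from a RefSeq table of GRCh38.p14, matched by symbol for 11208 of 11379 genes.

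Named genes were all P-body factors, the 12 largest called rises and falls without overlap, with a mean of 100 reads per library and an edited share of 1%, up to 2 called members per list and direction, and the 6 highest shares. A called gene is not reported here. Members and lists were chosen with earlier results of these data known. Intervals are Wilson or exact at 95%, floors are 3 counts, and both cover counting error only.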

Additional observations from a re-analysis of the deposited data

Results flagged for a closer look

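For 8 of the genes named, the difference between the groups with and without the second editor was larger or smaller with the DDX6 fusion than with the unfused editors, by the interaction term of edgeR's quasi-likelihood test over 10 libraries. The log2 difference of the differences was 7.997 for MSX1, 5.56 for IFITM3, 2.63 for UBXN7, 2.31 for B2M, 1.91 for PRKCA, 1.86 for ITM2B, 1.82 for SH3BGRL and -8.19 for SLC25A3. The size for MSX1 depends on the prior count of the fit, since the unfused pair had 0 edited reads and unfused APOBEC1 4. The value for SLC25A3 combines 2 edited reads in dual-editor cells with 52 and 56 in the libraries of the unfused pair. In the illumina libraries the unfused pair edited only 0.0183% and 0.0574% of SLC25A3 reads, within the range of unfused APOBEC1. SH3BGRL was edited in 0.908% and 0.911% of reads by the unfused pair and in 5.05%, 3.24% and 4.87% by unfused APOBEC1.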

How the results depend on the processing

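The ratio of library-wide editing moved from 0.815 to 0.857 when edited percents were averaged over genes, and ran from 0.800 to 0.829 with a library left out. Genes edited more by the dual editor numbered 12 with DESeq2, 4 with limma on log2 percent, 13 without scaling, 9 with TMM scaling, 17 with median scaling, 14 with APOBEC1-DDX6 replicates 2 and 3 as 1 sample, 121 with the illumina dual-editor libraries, and 2 to 15 with a library left out. Genes edited less numbered 5 with DESeq2, 123 without scaling, 37 without the filter on edited reads, 8 with replicates 2 and 3 as 1 sample, 76 with the illumina libraries, and 0 to 9 with a library left out, where a lone library is assumed to vary like the other group. With the replicate block, a term for each replicate number, there were 54 and 36, 13 and 41 for the unfused editors, 54 and 17 beyond them, and 4070 and 4046 for reads. In fits over 5 libraries this block leaves little to estimate the spread from. Replicate 3 exists only in groups without the second editor, so there its own term absorbs it. No pairing was established and the libraries share only a number, since deviations of same-numbered libraries correlated at 0.0193 and 0.0278. Unfused editors gave 10 higher and 28 lower with DESeq2, 203 lower without scaling, 174 lower with TMM scaling, and 6 to 7 higher and 12 to 25 lower with a library left out. Beyond the unfused editors there were 104 higher with DESeq2, 115 with TMM scaling, and 21 to 65 higher and 5 to 21 lower with a library left out. Counts of genes with changed reads stayed within 1.5 times in every alternative run (3379 to 4199 higher). With the illumina libraries the log2 difference turned to -0.052 for XPNPEP1, -0.96 for RPLP1, -0.045 for TPT1, -2.25 for FTH1, 1.01 for DAG1 and 0.60 for RPS6. The cause of these differences was not tested. Edited reads per gene, at times under 10 in a group, limit the precision of single genes.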
